A study of Mus musculus with 2 samples.

Results

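The Ly6 family of the mouse encodes small cell surface proteins, and its best known member in blood research is Ly6a, the gene of the stem cell antigen Sca-1. The 8 genes described here (Ly6a, Ly6c1, Ly6c2, Ly6d, Ly6e, Ly6f, Ly6i and Ly6k) were found by matching each symbol to its Ensembl identifier. All 8 were present among the 43346 Ensembl genes measured. Total RNA was sequenced from 2 libraries of hematopoietic stem cells, scarce marrow cells able to self-renew and to generate all blood lineages. Both came from male C57BL/6J mice of 5 to 6 weeks, an adult stage, with no treatment or altered allele named, and each was made from 100 cells. They are biological replicates 1 and 2 of a single group, so no second condition could be set against them. Both carry a single donor identifier with separate biosample identifiers. The sources used here do not say whether different animals gave the pools, nor how the cells were gated, so the spread of values may be technical. A pool cannot assign a transcript to a cell, and in such bulk samples fewer cells of a type and less RNA per cell cannot be told apart.

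Ly6 proteins carry a compact, disulfide-bonded fold shared with the urokinase receptor, and most are held in the membrane by a glycosylphosphatidylinositol (GPI) anchor, a lipid attached in the endoplasmic reticulum. Several Ly6 genes, Ly6a among them, are known to respond to interferons. In mouse bone marrow, Sca-1 together with the receptor Kit is used to sort stem and early progenitor cells, Ly6C marks monocytes, and Ly6D marks lymphoid progenitors committed towards B cells.

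The deposited expected counts (estimated reads per gene, where an ambiguous read is divided among its possible genes) totalled 48313341 for replicate 1 and 28947093 for replicate 2. Levels are in TPM, transcript abundance corrected for length and brought to the same total in each library, and mean ± SD values cover the 2 libraries (n = 2 throughout). Nuclear protein coding genes held 30.0% of TPM in replicate 1 and 26.6% in replicate 2, mitochondrial genes and other RNA classes holding the rest. Of the stem and multipotent progenitor markers, 10 of 12 were detected in both libraries, against 45.5% of nuclear protein coding genes. The highest were Hlf at 161.7 and 97.98 TPM in replicates 1 and 2, Kit at 107.5 and 117 TPM and Cd34 at 98.1 and 78.1 TPM. Meis1 (86.7 and 60.2 TPM), Flt3 (58.6 and 42.9 TPM), Mecom (52.0 and 17.9 TPM) and Mllt3 (34.8 and 27.5 TPM) followed. Procr (3.29 and 6.48 TPM), Fgd5 (2.12 and 3.91 TPM) and Ctnnal1 (1.23 and 2.37 TPM) were the lowest of the 10. Slamf1 (2.87 and 0.36 TPM) and Hoxb5 (0 and 0.16 TPM) were the 2 exceptions. Markers of other marrow cells were present too, and those of neutrophils and B cell progenitors differed most between the libraries.

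The members lie together on chromosome 15 (GRCm38, positions from GENCODE M21), in a span of 510 kb from 74762056 to 75272235. Their coding sequences differ widely in likeness. Ly6c1 and Ly6c2 were identical at 384 of 393 coding bases (97.7%), and Ly6a matched Ly6c1 at 83.7% and Ly6c2 at 83.5% of aligned bases. Ly6a was 86.3% identical to Ly6i and 84.6% identical to Ly6f. Ly6d, Ly6e and Ly6k matched the other members, and one another, at between 55.2% and 64.9% of aligned bases. The first 90 coding bases of Ly6c2, Ly6c1 and Ly6a (transcripts Ly6c2-201, Ly6c1-201 and Ly6a-201, GENCODE M21) are shown because assigning a read among these genes rests on such differences. They begin at the start codon and cover the signal peptide that directs the protein to the secretory pathway. Capitals in Ly6c2 mark bases that differ from Ly6c1, and capitals in Ly6c1 and Ly6a mark bases that differ from Ly6c2:
Ly6c2: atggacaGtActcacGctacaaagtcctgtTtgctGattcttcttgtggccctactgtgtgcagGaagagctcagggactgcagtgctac
Ly6c1: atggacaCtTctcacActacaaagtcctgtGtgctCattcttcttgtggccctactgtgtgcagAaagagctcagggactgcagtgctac
Ly6a: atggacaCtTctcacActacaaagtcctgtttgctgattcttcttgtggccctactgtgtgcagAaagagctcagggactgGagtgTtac
Of the 9 bases by which Ly6c1 and Ly6c2 differ in their coding sequence, 6 fall in this stretch. Ly6a has the Ly6c1 base at 4 of those 6 positions, and it equals Ly6c1 at 86 of the 90 bases.

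Detection required a TPM of 1 or more together with 10 or more expected counts. By this rule Ly6e, Ly6c2 and Ly6a, 3 of 8 members, were detected in both libraries, whereas the share was 24.7% of all Ensembl genes and 45.5% of the 21461 nuclear protein coding genes. Another 2 members, Ly6i and Ly6d, were detected in a single library each, as were 6.62% of coding genes. Ly6c1, Ly6f and Ly6k were detected in neither, and for Ly6f and Ly6k no read was counted in either library, as for 38% of coding genes. The median over the 8 members came to 2.54 TPM for replicate 1 and 4.08 TPM for replicate 2, where the coding gene medians were 0.19 and 1.02 TPM. Summed over the family, the level was 977 TPM in replicate 1 against 719 TPM in replicate 2 (848 ± 182 TPM). Ly6e made up 79.6% and 76.9% of that sum, Ly6c2 15.1% and 18.5%, and Ly6a 4.81% and 3.52%, so Ly6a was the lowest of the 3 members detected in both libraries.

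**Figure D1:**
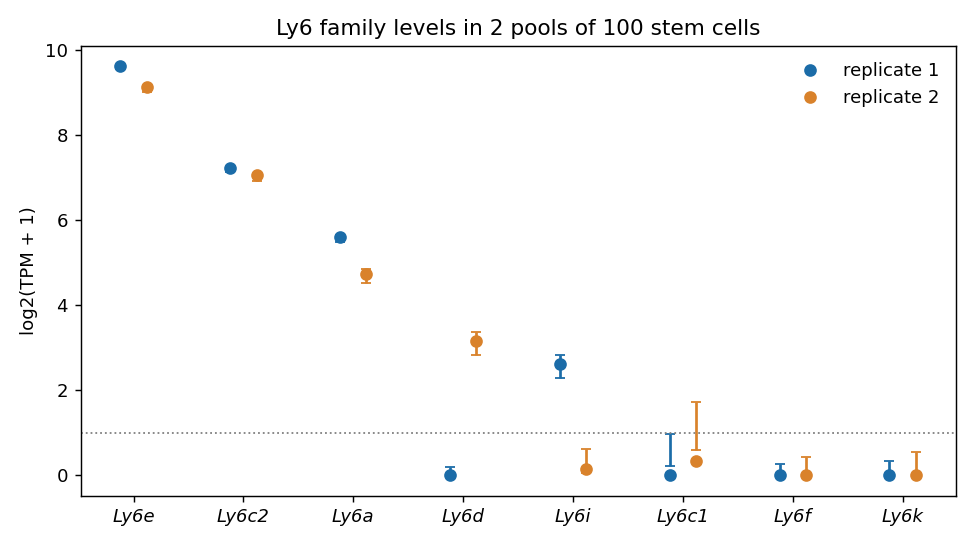
Level of each Ly6 family member as log2(TPM + 1) in replicate 1 (blue points) and replicate 2 (orange points); vertical bars are the deposited credibility intervals, which lie around the posterior mean TPM and not the plotted TPM, and the dotted line is 1 TPM. Ly6e, Ly6c2 and Ly6a lie far above the line in both libraries, Ly6d and Ly6i in a single library each, and Ly6c1, Ly6f and Ly6k lie below it.

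Ly6a (ENSMUSG00000075602, chr15:74994877-74998031, minus strand) was measured at 47.0 TPM in replicate 1 against 25.3 TPM in replicate 2 (36.2 ± 15.4 TPM), from 1051 and 316 counts. Replicate 1 was the higher library, and the deposited credibility intervals, 43.3 to 48.9 TPM and 21.9 to 27.5 TPM, did not overlap. The sources used here do not give the level of the interval. These intervals cover counting and read assignment alone, since reads amplified by PCR are not independent molecules. Such a gap was common, because intervals were apart for 66.8% of the 9769 coding genes detected in both libraries. Ly6a differed by 0.87 between replicates 1 and 2 on the log2(TPM + 1) scale, which understates differences of low genes. Over the 11189 coding genes detected in either library, the median difference was 0.09 and the median absolute difference 0.49. The posterior mean TPM, a second estimate in the same tables, was 46.1 and 24.7 for Ly6a, close to the TPM. Among coding genes Ly6a ranked 1364th in replicate 1 and 2495th in replicate 2. The coding genes nearest to it in level over the 2 libraries, by Euclidean distance of log2(TPM + 1) among 21460 genes, were Nmd3 (47.6 and 24.98 TPM), Rps6ka3 (48.1 and 25.3 TPM) and Rptor (47.2 and 26.0 TPM).

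Ly6e (ENSMUSG00000022587, chr15:74955051-74959905, plus strand) encodes a member also called thymic shared antigen, first studied on immature thymocytes, and in human cells its product restricts the entry of coronaviruses. It was the highest member at 777.6 TPM in replicate 1 against 552.5 TPM in replicate 2 (665 ± 159 TPM), from 22043 and 9480 counts. These levels placed Ly6e 23rd and 31st among coding genes. Replicate 1 was again the higher library, by 0.49 on the log2 scale, which equals the median absolute difference. The size of that gap depends on the scaling, being 0.32 with TPM rescaled to nuclear protein coding genes, 0.28 with edgeR's TMM factors and 0.26 with DESeq2's size factors. The posterior mean TPM was 759 and 526, and the deposited intervals of 747 to 771 and 512 to 541 TPM surround that estimate. Among the nearest coding genes in level were Ppia (794.5 and 532.6 TPM) and Pfn1 (747.9 and 491.8 TPM). Set against Ly6e within each library, Ly6a had a log2 ratio of -4.04 in replicate 1 and -4.44 in replicate 2 (-4.24 ± 0.28), computed with 0.1 TPM added to each level. Ly6e therefore exceeded Ly6a by 16.5-fold in replicate 1 and 21.8-fold in replicate 2. By TPM as deposited, this ratio varied less between the libraries than either level did. For Ly6e that order depends on the scaling. Its gaps of 0.32, 0.28 and 0.26 under the other scalings were smaller than the change in log2 ratio from -4.04 to -4.44.

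Ly6c2 (ENSMUSG00000022584, chr15:75108158-75111970, minus strand) encodes Ly6C, the surface protein that is high on inflammatory monocytes. It was measured at 147.2 TPM in replicate 1 against 132.8 TPM in replicate 2 (140.01 ± 10.2 TPM), from 2294 and 1351.62 counts. The libraries were close, with a log2 difference of 0.15. That sign does not hold under other scalings: with TPM rescaled to nuclear protein coding genes the difference was -0.029, with edgeR's TMM factors -0.17, and with DESeq2's size factors -0.19. Ly6c2 ranked 245th and 233rd among coding genes. The log2 ratio of Ly6a over Ly6c2 was -1.64 in replicate 1 and -2.39 in replicate 2, so that Ly6a stood below Ly6c2 in both libraries.

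Markers of monocytes were detected beside Ly6c2 at lower levels. Of 10 monocyte genes 7 were detected in both libraries, where the share over nuclear protein coding genes was 45.5%. Their summed level over all 10 was 71.4 TPM in replicate 1 against 33.1 TPM in replicate 2. The highest were S100a4 (27.1 and 0 TPM), Ms4a6c (19.6 and 3.38 TPM) and Irf8 (9.33 and 12.5 TPM), Irf8 being a transcription factor of the monocyte lineage. Csf1r, the receptor for macrophage colony-stimulating factor, stood at 3.37 and 1.81 TPM, and Ccr2, the chemokine receptor of inflammatory monocytes, at 2.10 and 1.33 TPM. Clec4a1 was at 0 in both libraries, while Cx3cr1 was at 0 and 0.18 TPM. The part of such cells in the level of Ly6c2 was not tested.

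Ly6c1 (ENSMUSG00000079018, chr15:75044018-75048830, minus strand) is the near copy of Ly6c2, placed 59.3 kb from it. It was listed at 0 TPM in replicate 1 against 0.26 TPM in replicate 2, from 0 and 3.38 counts. The posterior mean TPM of Ly6c1 was higher than its TPM, at 0.53 and 1.32, with intervals of 0.159 to 0.954 TPM and 0.506 to 2.28 TPM. That estimate does not rest on reads alone, since Ly6f, with no count, had 0.08 and 0.15 TPM by it. The posterior mean counts of Ly6c1 were 0.54 in replicate 1 and 4.6 in replicate 2. By posterior mean TPM, with that limit, Ly6c1 held 0.367% of the pair's level in replicate 1 and 1.03% in replicate 2. The log2 ratio of Ly6c1 over Ly6c2 was -10.52 in replicate 1 and -8.53 in replicate 2 (-9.53 ± 1.41), and its size depends on the 0.1 TPM added to each level.

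Ly6c1 is known from endothelial cells. Of 10 endothelial markers, 5 were detected in both libraries, close to the share of 45.5% over nuclear protein coding genes. Those 5 included Pecam1 (36.0 and 20.6 TPM), Egfl7 (34.2 and 15.6 TPM) and Robo4 (4.61 and 3.28 TPM), genes that stem cells are known to express as well. Emcn (1.88 and 3.31 TPM) and Tek (1.94 and 1.71 TPM) were the others, and Plvap was detected in replicate 2 alone (0 and 1.99 TPM). Cdh5, Kdr and Cldn5 were at 0 in both libraries and Sox18 at 0 and 0.11 TPM. The part of such cells in these levels was not tested. Replicate 1 held a summed 78.6 TPM of these markers and replicate 2 held 46.5 TPM.

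The deposited estimates also show how far read assignment moved the counts of these near copies. RSEM, the program whose column names the tables carry, reports a posterior SD of each count, which is 0 where the estimated count did not move. This SD does not count the reads that fit more than 1 gene. It was above 0 for 2 members, Ly6c1 and Ly6c2, at 0.78 reads in replicate 1 and 1.49 reads in replicate 2. Such an SD was above 0 for 9.99% of coding genes with at least 10 counts in replicate 1 and for 13.2% in replicate 2. The counts of all members were whole numbers in replicate 1, to within 0.005. In replicate 2 only the pair was fractional, with 3.38 and 1351.62 counts that sum to 1355. Among coding genes with at least 10 counts, which leaves out Ly6c1, 7.44% in replicate 1 and 10.1% in replicate 2 had fractional counts. Ly6a had whole counts and a posterior SD of 0 in both libraries, so its count showed no movement towards Ly6c1 or Ly6c2. Reads that fit more than 1 gene but were always assigned to the same gene would not show in these values.

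The annotated transcripts show where sharing was possible. Each transcript was cut into all its windows of 50 or 100 bases, and a window was called shared where the same bases occur in a transcript of another gene on either strand. At 100 bases, 16.6% of windows of Ly6c1 and 9.41% of those of Ly6c2 were shared, those of Ly6c2 with Ly6c1 alone and those of Ly6c1 with Ly6c2 and Ly6a. At 50 bases the shares were 38.4% for Ly6c1 and 23.1% for Ly6c2, part of those of Ly6c2 lying in the retained intron of Ly6c2-202, which holds a repeat common to 538 genes. For Ly6a the share was 11.3% at 50 bases and 0.462% at 100 bases. The 100-base windows of Ly6a that were shared all came from Ly6a-205. Ly6e, Ly6d and Ly6f shared no window at either length. The effective lengths in the tables correspond to mean fragments of 123 bases in replicate 1 and 131 bases in replicate 2, longer than these windows.

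**Figure D2:**
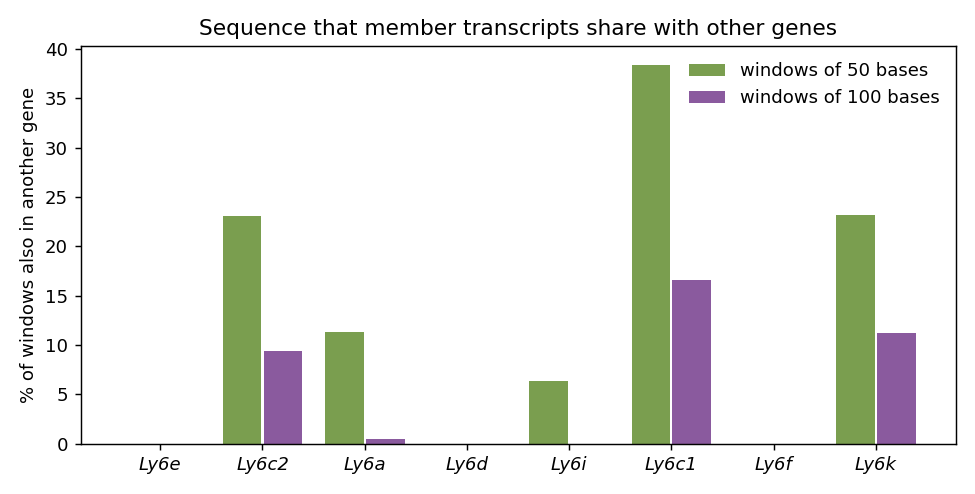
Share of all 50-base (green) and 100-base (purple) windows of each member's annotated transcripts that also occur in a transcript of another gene, in percent. Ly6c1 has the largest shares (38.4% and 16.6%), Ly6e, Ly6d and Ly6f have none, and the shared windows of Ly6k lie in the antisense gene Gm17189.

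Upstream sequence was in RefSeq's promoter table for 3 members, Ly6c1, Ly6c2 and Ly6f. The 250 bases before the RefSeq start are shown for Ly6c2 and Ly6c1 because these near copies had such unequal levels. Both lie on the minus strand of GRCm38.p6, Ly6c2 at chr15:75111972-75112221 and Ly6c1 at chr15:75048838-75049087, and are printed 5′ to 3′ on that strand. Capitals mark bases that differ from the other gene or have no partner in the alignment:
Ly6c2: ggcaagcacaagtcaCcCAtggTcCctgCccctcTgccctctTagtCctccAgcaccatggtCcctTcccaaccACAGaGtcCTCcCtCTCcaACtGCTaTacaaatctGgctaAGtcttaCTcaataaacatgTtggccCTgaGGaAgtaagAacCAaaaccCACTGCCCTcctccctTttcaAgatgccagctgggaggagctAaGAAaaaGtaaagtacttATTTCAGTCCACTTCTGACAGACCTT
Ly6c1: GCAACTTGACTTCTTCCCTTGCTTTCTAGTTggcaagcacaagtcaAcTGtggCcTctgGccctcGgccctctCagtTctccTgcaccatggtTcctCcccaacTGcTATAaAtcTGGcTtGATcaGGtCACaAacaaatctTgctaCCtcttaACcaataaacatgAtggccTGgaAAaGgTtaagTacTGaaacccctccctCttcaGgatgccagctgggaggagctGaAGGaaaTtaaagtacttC
Over 216 aligned bases the upstream stretches were 75.9% identical, with 68 further bases unpaired, so they differ more than the coding sequences do. TATAAA, the core promoter box, and TTCNNNGAA, the palindrome that STAT factors bind, were searched on both strands. TATAAA occurred once in the stretch of Ly6c1 and once in that of Ly6f and not in that of Ly6c2, and it was found in 12.4% of 32851 promoters of that length. TTCNNNGAA matched none of the 3, against 7.02% of all promoters. A match or its absence describes these letters in this window alone.

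Ly6i (ENSMUSG00000022586, chr15:74979534-74983430, minus strand), a close relative of Ly6a known from cells of the myeloid lineage, was detected in replicate 1 alone. It stood at 5.07 TPM in replicate 1 against 0.11 TPM in replicate 2, from 81 and 2 counts, with intervals of 3.86 to 6.06 TPM and 0.0376 to 0.529 TPM. Within 1.5-fold of the Ly6i level in replicate 1 were 1884 coding genes, Ly6i included. Of these, 97 (5.15%, exact binomial 95% interval 4.19% to 6.25%) were not detected in replicate 2. All 81 reads of replicate 1 were assigned to the transcript Ly6i-202 and the 2 reads of replicate 2 to Ly6i-201. The posterior mean counts of replicate 1 were 77.25 for Ly6i-202 and 3.75 for Ly6i-201, each with a posterior SD of 4.55. With these assignments the effective length of Ly6i was 497.56 bases in replicate 1 against 1026.04 in replicate 2, which widens the gap in TPM.

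Ly6d (ENSMUSG00000034634, chr15:74762056-74763620, minus strand) showed the opposite pattern. No read was counted in replicate 1, which allows up to 0.150 TPM, whereas 88 counts gave 7.90 TPM in replicate 2, with an interval of 6.09 to 9.25 TPM. Within 1.5-fold of that level in replicate 2 were 2689 coding genes, Ly6d included. Of these, 57 (2.12%, exact binomial 95% interval 1.61% to 2.74%) had no count in replicate 1. The binomial intervals given for Ly6i and Ly6d treat genes as independent and measure no spread between libraries. Among coding genes detected in either library, 11.2% were more than 2-fold higher in replicate 1 than in replicate 2, as was Ly6i, and 12.1% were more than 2-fold lower, as was Ly6d, on the log2(TPM + 1) scale.

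Markers of other marrow cells differed between the libraries beside Ly6d and Ly6i. For scale, 45.5% of nuclear protein coding genes were detected in both libraries and 6.62% in 1 library only. All 10 B cell progenitor markers were detected in replicate 2 and 3 of them in replicate 1, with summed levels of 12.4 TPM in replicate 1 against 42.1 TPM in replicate 2. Igll1, a part of the surrogate light chain of early B cells, was at 0 and 9.73 TPM, Cd79b at 0 and 5.83 TPM, and Cd79a at 7.36 and 7.43 TPM. Pax5, Vpreb1 and Rag1 were at 0 in replicate 1 as well. Neutrophil markers summed to 0.5 TPM in replicate 1 against 318 TPM in replicate 2, led by the granule protein gene Ngp (0.09 and 139.5 TPM), S100a9 (0.24 and 69.1 TPM) and S100a8 (0 and 45.0 TPM). Of those 10 markers none was detected in replicate 1 and 7 were detected in replicate 2, while Retnlg, Mmp8 and Ly6g were at 0 in both libraries. Of 9 plasma cell markers, 3 were detected in both libraries and 4 in replicate 2 alone, with sums of 136 and 195 TPM led by Jchain (99.4 and 129.2 TPM), Xbp1 (33.7 and 38.6 TPM) and Irf4 (0 and 8.71 TPM). Of 10 T and NK cell markers, 3 were detected in both libraries, 3 in replicate 1 alone and 1 in replicate 2 alone, with sums of 58.4 and 67.5 TPM led by Nkg7 (36.2 and 55.8 TPM), Ncr1 (7.04 and 1.74 TPM) and Lck (1.19 and 6.95 TPM). The part of these cells in the levels of Ly6d and Ly6i was not tested.

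Ly6f (ENSMUSG00000022583, chr15:75268421-75272235, plus strand) and Ly6k (ENSMUSG00000044678, chr15:74796874-74799986, minus strand) had no count in either library. Ly6k is known from testis, where it is needed for sperm migration. At these depths a count of 0 allows up to 0.129 TPM in replicate 1 against 0.230 TPM in replicate 2 for Ly6f, and up to 0.161 and 0.289 TPM for Ly6k. Ly6k overlaps the antisense gene Gm17189, which was at 0 in both libraries as well. The sources used here do not state whether the counting used strand.

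Around the members, few other genes of the cluster had reads. The span holds 30 annotated genes, of which 29 were measured, and the members carried 99.99% of its TPM in replicate 1 and 99.2% in replicate 2. Of the 21 measured genes that are not members, 17 had no count in either library, among them Ly6g, the gene of a granulocyte surface antigen. The neighbour I830127L07Rik, which GENCODE lists as a transcribed unprocessed pseudogene and RefSeq as Ly6a2, stood at 0.05 TPM in replicate 1 against 5.88 TPM in replicate 2, from 1 and 64 counts. It shares 50-base windows with Ly6a, Ly6c2 and Ly6i. High and low members were interspersed, and Ly6i at 5.07 and 0.11 TPM lies 19.6 kb from Ly6e.

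**Figure D3:**
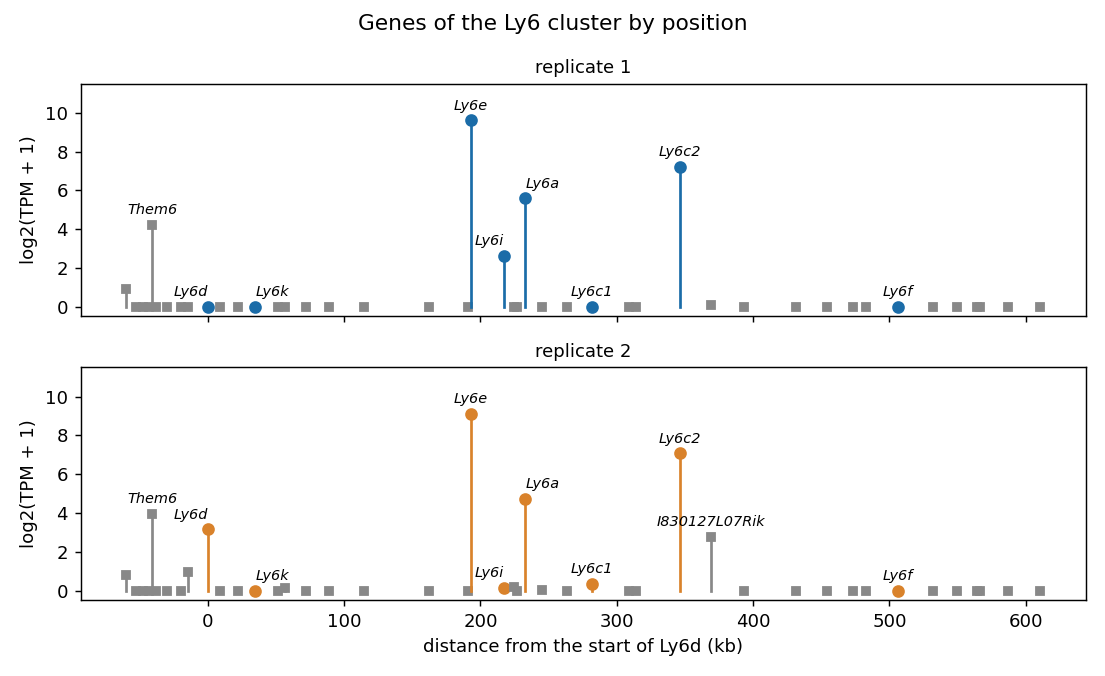
Level of every measured gene around the Ly6 cluster as log2(TPM + 1), by distance of its lower coordinate from that of Ly6d in kb, in replicate 1 (top) and replicate 2 (bottom). Coloured circles are the 8 members and grey squares other genes, named where they reach 1 TPM; Ly6e, Ly6a and Ly6c2 stand out in both panels, and I830127L07Rik reaches 5.88 TPM in replicate 2.

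The transcript tables divide each gene's level among annotated transcripts. Of the 16 transcripts of Ly6e, Ly6e-215 carried 69.6% of its level in replicate 1 and 72.7% in replicate 2, at 540.8 and 401.8 TPM. Ly6e-213, which begins upstream of it, carried 25.3% and 13.1%. Grouped by annotated start, the 5 transcripts beginning between 74955653 and 74955683 held 72.2% of the Ly6e level in replicate 1 and 79.2% in replicate 2. The 10 that begin between 74955051 and 74955260 held 27.8% and 17.3%. The single transcript from 74956555, Ly6e-208, held 0.03% and 3.53%. Retained-intron transcripts made up 2.57% in replicate 1 and 6.49% in replicate 2. The start groups were drawn after the values were seen.

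The transcripts of Ly6c2 were divided differently in the libraries, although the gene's level was close in both. Ly6c2-201 was at 19.0 TPM in replicate 1 against 58.2 TPM in replicate 2, with intervals of 15.4 to 22.0 TPM and 49.0 to 61.9 TPM that did not overlap. It carried 12.9% and 43.9% of the gene's level. Ly6c2-203 carried 32.8% and 12.1%, at 48.2 and 16.0 TPM, and Ly6c2-204 carried 54.3% and 43.3%. Ly6a was assigned wholly to Ly6a-201 in replicate 1 and for 82.7% to it in replicate 2. Ly6a-205 took 15.1% in replicate 2, at 3.83 TPM, with an interval from 0.000111 to 7.26 TPM that reaches almost to 0. Shares among overlapping transcripts are model estimates.

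**Figure D4:**
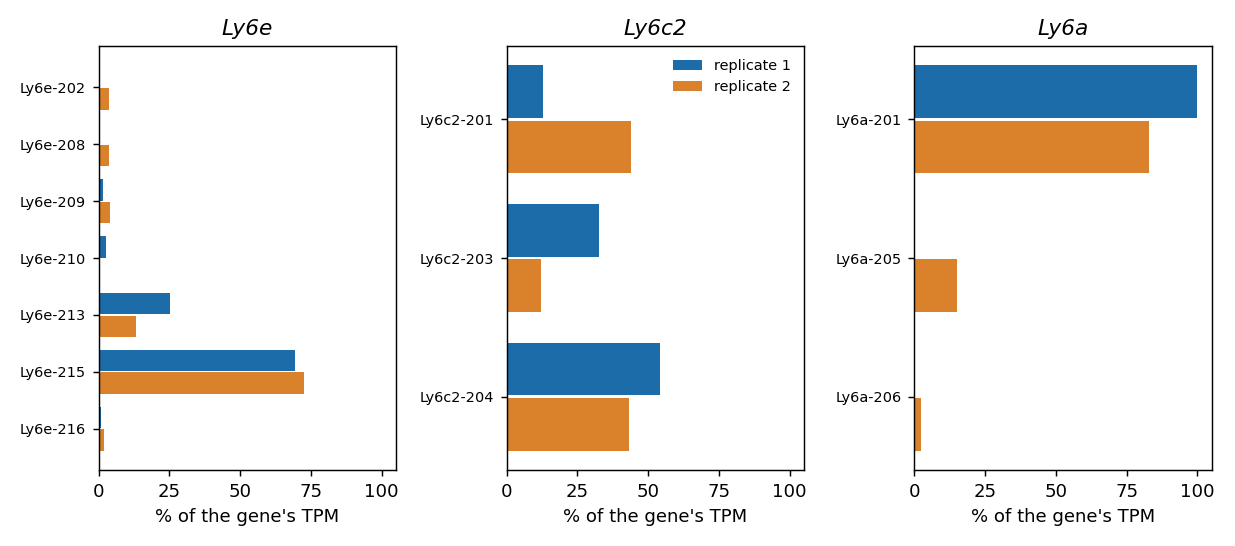
Share of each gene's level assigned to its annotated transcripts, in percent of the gene's TPM, for transcripts with at least 1% in either library; blue bars are replicate 1 and orange bars replicate 2. Ly6e-215 and Ly6a-201 lead in both libraries, while Ly6c2-201 carries 12.9% of Ly6c2 in replicate 1 and 43.9% in replicate 2.

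Other genes of the Ly6 and urokinase receptor fold, some of them in or beside the cluster, were mostly undetected. Of 39 measured, 2 were detected in both libraries, against 45.5% of coding genes, and 26 had no count in either, against 38%. The 2 became 0 at a TPM minimum of 5 and 1 at a count minimum of 50. Cd59a, which encodes an inhibitor of the complement membrane attack complex, was measured at 11.47 TPM in replicate 1, against 3.18 TPM in replicate 2. Plaur, the urokinase receptor itself, was at 6.75 and 2.00 TPM. Ly6g6c was detected in replicate 1 alone (5.42 and 0 TPM), and Cd177, which encodes a neutrophil surface protein, in replicate 2 alone (0 and 3.16 TPM).

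Most genes that build and attach the GPI anchor were detected. Of 27 measured, 24 were detected in both libraries, against 45.5% of coding genes, and 17 were at a TPM minimum of 5. Of 17 genes of anchor synthesis, 15 were detected in both libraries at the TPM minimum of 1. The highest were Pigq (86.2 and 122 TPM), a subunit of the enzyme that begins the anchor, Dpm2 (29.7 and 22.6 TPM), which also supports the supply of dolichol-phosphate mannose, and Pigx (23.3 and 12.1 TPM), a partner of the first mannosyltransferase. The lowest were Pigz (0 and 0.08 TPM), which adds a further mannose to some anchors, and Pigw (0 and 3.03 TPM), which acylates inositol. All 5 subunits of the transamidase, the enzyme that moves the finished anchor onto the protein, were detected in both libraries. Pigt (61.6 and 49.2 TPM), Gpaa1 (35.0 and 44.4 TPM) and Pigu (19.5 and 21.9 TPM) were its highest, and Pigs (14.2 and 17.8 TPM) and the catalytic subunit gene Pigk (15.2 and 13.2 TPM) its lowest. Of 5 genes that remodel the anchor 4 were detected in both libraries, led by Pgap2 (31.7 and 20.4 TPM), Pgap6 (20.1 and 10.5 TPM) and Pgap3 (11.3 and 3.22 TPM). Mppe1 was at 4.17 and 3.58 TPM, and Pgap1, which removes the acyl chain from inositol, was at 0 and 0.05 TPM.

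All 12 genes of interferon reception and signalling were detected in both libraries, against 45.5% of coding genes, and 11 were at a TPM minimum of 5. The highest were Jak1 (65.7 and 47.5 TPM), a kinase of both receptor types, and the receptor genes Ifnar2 (63.6 and 44.2 TPM) and Ifngr1 (44.9 and 57.1 TPM). Ifngr2 (2.53 and 3.72 TPM), the partner of Ifngr1, and the transcription factor Stat2 (5.70 and 7.07 TPM) were the lowest. These 12 genes had a median of 29.3 TPM in replicate 1, against 20.5 TPM in replicate 2. No interferon-treated sample was among those used, so a response of the Ly6 genes to these signals could not be measured.

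**Figure D5:**
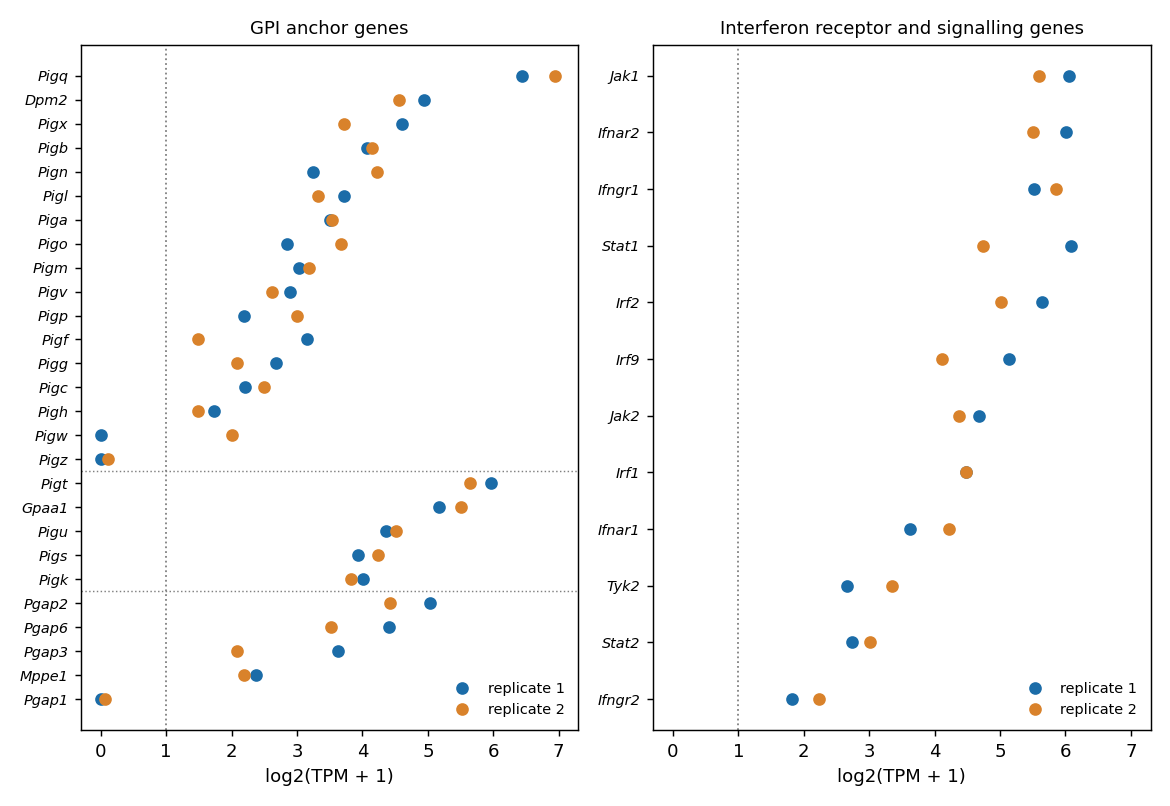
Levels of the GPI anchor genes (left, with synthesis, transfer and remodelling genes separated by dotted lines) and of interferon receptor and signalling genes (right) as log2(TPM + 1) in replicate 1 (blue) and replicate 2 (orange); the vertical dotted line is 1 TPM. Pigq and Pigt are the highest GPI genes, Pigz and Pgap1 lie near 0, and all 12 interferon genes lie above the line in both libraries.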

How the data were processed

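Gene and transcript tables of 2 total RNA-seq libraries, each of 100 hematopoietic stem cells, were used as deposited. Expected counts, estimated reads per gene or transcript, were deposited by the authors with posterior means and SDs of those counts. TPM values and posterior mean TPM, with credibility bounds, were deposited by the authors and are scaled to a fixed total over all entries, so abundant non-coding RNA lowers the TPM of every coding gene. FPKM values stand in the same deposited tables, and the percent of a gene's level per transcript was deposited in the transcript tables. Column names are those RSEM writes, per the file headers. The genome is mm10 and the annotation GENCODE release 4 for mouse, per the text deposited with each sample. The sources used here do not give the aligner, program versions or strand handling. Each library has 69691 entries, and those without an Ensembl identifier (0.0120% of counts in replicate 1, 0.00719% in replicate 2) were left out of gene counts.

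Gene names were looked up in a symbol table that covered 42462 identifiers (98.0%). Of 158 listed symbols 3 had no match and 3 were matched by an older name at the same locus. Positions, biotypes and coding sequences are those of GENCODE release 21 (GRCm38), and promoters those of RefSeq (GRCm38.p6). The members and lists were chosen with earlier results of these data known. All 8 members are named. Of other Ly6 and urokinase receptor genes those detected in a library are named, of each GPI list and the interferon list the 3 highest and 2 lowest by mean TPM, of each marker list the 3 highest, and for Ly6a and Ly6e the 3 nearest coding genes. One gene that this rule names is not reported here. Slamf1, Hoxb5, Meis1, Flt3, Mecom, Mllt3, Procr, Fgd5, Ctnnal1, Pax5, Vpreb1, Rag1, Retnlg, Mmp8, Csf1r, Ccr2, Clec4a1, Cx3cr1, Cdh5, Kdr, Cldn5, Emcn, Tek, Plvap and Sox18, and genes of the cluster, were named after their values were seen.

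No test between groups was possible with 1 group of 2 libraries. Differences use log2(TPM + 1), ratios log2 of TPM plus 0.1, and a count of 0 allows up to 3 counts. Expected counts were rounded for the TMM factors of edgeR 4.0.16 and the size factors of DESeq2 1.42.0 (R 4.3.3). Python 3.11.15 was used for the remaining steps, with pandas 2.3.3, scipy 1.17.1 and Biopython 1.88, with global alignments for identities. The scaling and window steps were tested on simulated data. Alternatives were the thresholds, pseudocounts, posterior mean TPM, FPKM, rescaled TPM, other factors, and each library left out.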

Additional observations from a re-analysis of the deposited data

How the results depend on the processing

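No paired analysis was possible because the study has a single group of 2 libraries. Each member's level rests on 2 libraries, and leaving 1 out gives the value of the other with no spread. With either library alone, 4 members, 3 other Ly6 and urokinase receptor genes, 24 to 25 GPI genes and 12 interferon genes were detected. The summed level ranged from 719 to 977 TPM, the log2 ratio of Ly6c1 over Ly6c2 from -10.52 to -8.53 and that of Ly6a over Ly6e from -4.44 to -4.04. The count of 3 members detected in both libraries was also 3 at a TPM minimum of 0.5 or 5, with no count minimum, with a count minimum of 50, and with posterior mean TPM. The 2 other Ly6 and urokinase receptor genes detected in both became 0 at a TPM minimum of 5 and 1 at a count minimum of 50. At a TPM minimum of 5, GPI genes detected in both numbered 17 and interferon genes 11, against 24 and 12.

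Rescaling TPM to nuclear protein coding genes raised the summed level to 2981 TPM, by the construction of that scale. The log2 ratio of Ly6c1 over Ly6c2 was -6.97 with a pseudocount of 1, -7.16 with posterior mean TPM and -11.54 with expected counts, so its size is not settled while its sign held. With expected counts, which are not per length, Ly6a over Ly6e was -4.65. The log2 difference of Ly6c2 between replicates 1 and 2, 0.15, turned to -0.029 with rescaled TPM, -0.17 with TMM factors, -0.19 with DESeq2 size factors and -0.16 with TMM factors and no filter. The median difference of coding genes turned in the same settings, to -0.08, -0.05, -0.07 and -0.05. No other member's difference changed sign. The difference of Ly6e, 0.49, was 0.53 with posterior mean TPM and otherwise fell to between 0.26 and 0.32 under other scalings. Depth limits Ly6f and Ly6k to upper bounds.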
